A study of Mus musculus with 2 samples.

Results

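The genes described here encode brakes of myeloid cells. They are 2 ligands, Cd200 and Cd47, and 7 receptors, Cd200r1, Sirpa, Pilra, Lilrb3 (also named Pirb), Lilrb4a, Lair1 and Cd300a. They were taken by Entrez Gene number from a list of names, not by measured values, and all 9 of 9 had reads in both libraries, out of 18090 gene identifiers in either. The study sequenced RNA of mouse bone marrow-derived dendritic cells (DC, the cells that carry antigen to T cells) in 2 libraries, 1 immature and 1 mature. Marrow of C57BL/6 mice was grown for 6 days with GM-CSF (10 ng/ml) and IL-4 (1 ng/ml). Lipopolysaccharide (LPS, a bacterial cell wall component) was given at 100 ng/ml for 24 h to cells that the protocol calls the second sample, read here as the mature library, in medium with the same 2 factors. Whether the immature cells had the same extra 24 h of culture is not stated, so LPS and time in culture cannot be told apart. Below, before and after maturation stand for the immature and the mature library. Cells of both libraries were sorted on surface CD86 and Iab, with gates not given, and the sources used here do not give age, sex or the number of animals pooled.

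Receptors of this kind set a threshold for activation. Most carry immunoreceptor tyrosine-based inhibitory motifs (ITIMs) in the part inside the cell, which when phosphorylated recruit the phosphatases SHP-1 and SHP-2. CD200R1 lacks ITIMs and works through the adaptors DOK1 and DOK2 and the Ras regulator RasGAP. CD200 and CD47 are surface proteins of other cells, and of DC themselves, that engage CD200R1 and SIRPα, and CD47 is known as a "do not eat me" signal to phagocytes. Several of the inhibitory receptors have activating relatives with a similar outer part that signal through the adaptors DAP12 or FcRγ.

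Reads counted to genes numbered 7.56 M (M, 1000000 reads) before maturation and 8.07 M after it. The 9 genes took 24986 of the immature reads, 0.330% (Wilson 95% interval 0.3263 to 0.3345), and 18285 of the mature reads, 0.226% (0.223 to 0.230). RPKM is a gene's reads per 1000 bases of its length and per 1000000 reads counted to genes. With 1 library per state there was no replicate error and no test was made. Ratios of mature to immature RPKM carry an exact 95% interval that covers counting error only. Since these are bulk RNA samples, fewer cells of a type and less RNA per cell cannot be told apart. As a check of the label, the DC genes Itgax, H2-Ab1 and Cd74 were abundant in both libraries, and all 12 of 12 listed DC markers had reads in each. H2-Ab1 encodes a chain of Iab, an MHC class II protein on which the cells were sorted, so its level is no check. Cd74 belongs to the same MHC class II pathway, so its level is a weak check. The macrophage and monocyte genes Csf1r, at 280 and 141 RPKM, and Cd68, at 684 and 392 RPKM, were abundant as well. These levels therefore do not tell DC from macrophages. Itgax, which encodes CD11c, stood at 407 and 148 RPKM, Zbtb46 at 4.515 and 13.2 RPKM, and Flt3 at 0.722 and 3.28 RPKM. Of the 12 markers 6 were higher by 2-fold or more after maturation, namely Ccr7, Irf8, Cd83, Cd86, Zbtb46 and Flt3, and 2 were lower, Itgax and Dpp4. The migration receptor gene Ccr7 was 18.4-fold higher, and Cd86, which encodes a costimulatory protein used in the sort, was 5.815-fold higher.

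The sequences before the start sites are shown because a short motif was shared by the 4 receptor genes for which a sequence was found. The 2 ligand genes did not hold it. This motif was singled out after 4 motifs had been searched, so the contrast was chosen by its outcome and tests nothing. The sequences come from RefSeq on build GRCm38.p6, which is not the build named for the counts. They were found for 6 of the 9 genes, and all genes without a sequence are receptor genes. Those of Cd47 and Cd300a were searched but are not printed. Each run gives the 250 bases before the annotated start, 5′ to 3′ on the strand of the gene. Capitals mark the PU.1 core, searched as GAGGAA on both strands (TTCCTC is its reverse). PU.1 is a transcription factor of myeloid cells.

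Cd200 (chr16:45409054-45409303, minus strand): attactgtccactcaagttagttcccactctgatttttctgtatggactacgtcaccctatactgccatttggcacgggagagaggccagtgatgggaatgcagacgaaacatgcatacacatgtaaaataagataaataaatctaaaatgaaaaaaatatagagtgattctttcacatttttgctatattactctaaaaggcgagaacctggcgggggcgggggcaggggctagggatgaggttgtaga
Pilra (chr5:137836279-137836528, minus strand): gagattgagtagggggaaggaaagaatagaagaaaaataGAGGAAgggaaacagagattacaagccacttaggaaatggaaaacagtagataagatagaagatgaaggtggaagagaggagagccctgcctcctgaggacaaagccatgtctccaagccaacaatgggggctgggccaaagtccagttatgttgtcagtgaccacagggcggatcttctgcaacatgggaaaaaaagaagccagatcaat
Lilrb3 (chr7:3720383-3720632, minus strand): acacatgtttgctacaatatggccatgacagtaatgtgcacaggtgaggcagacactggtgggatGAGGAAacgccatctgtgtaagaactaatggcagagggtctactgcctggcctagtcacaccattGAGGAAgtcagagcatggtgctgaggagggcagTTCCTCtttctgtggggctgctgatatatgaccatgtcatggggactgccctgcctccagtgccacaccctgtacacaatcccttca
Lair1 (chr7:4063205-4063454, minus strand): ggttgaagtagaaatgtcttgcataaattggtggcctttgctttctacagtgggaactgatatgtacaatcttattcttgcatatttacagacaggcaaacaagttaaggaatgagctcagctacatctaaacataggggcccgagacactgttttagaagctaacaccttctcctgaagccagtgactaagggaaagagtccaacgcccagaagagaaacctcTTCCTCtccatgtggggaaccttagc

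The PU.1 core stood in the windows of all 4 of 4 receptor genes that had one, Pilra, Lilrb3, Lair1 and Cd300a, and in neither ligand gene. It occurs in 23.3% of 32851 windows of the same length over the genome, so it is a common motif. Lilrb3 held 3 matches. Of the other 3 motifs searched on both strands, the NF-kB consensus (in 7.25% of all windows) matched in Cd300a. The ISRE core GAAANNGAA (7.13%) matched in Pilra, and the GAS motif TTCNNNGAA (7.02%) matched in 0 of the windows. The Cd47 windows were rich in G and C, 73.2% and 74.4% for its annotated starts with 30 and 31 CpG, against 42.4% and 6 CpG for Cd200 and a median of 52.4% over all windows. A match is a description of letters, and no match says only that they are not in this window.

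With maturation 1 of the genes, Cd200, stood at least 2-fold higher, and 3, Pilra, Lair1 and Cd200r1, at least 2-fold lower. The other 5 lay within 2-fold. Higher and lower are counted on log2 of (RPKM + 1), where differences of weakly expressed genes come out too small, over the 11547 genes that reach 1 RPKM in either library. By the same rule 9.05% of all these genes were higher and 11.3% lower, against 1 and 3 of the 9. The median log2 difference of the 9 genes was -0.605 (range -2.94 to 4.35), beside 0.026 for all compared genes. The counting interval lay on 1 side of 1 for all 9, but the same held for 69.9% of all compared genes, so that criterion does not set them apart.

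**Figure D1:**
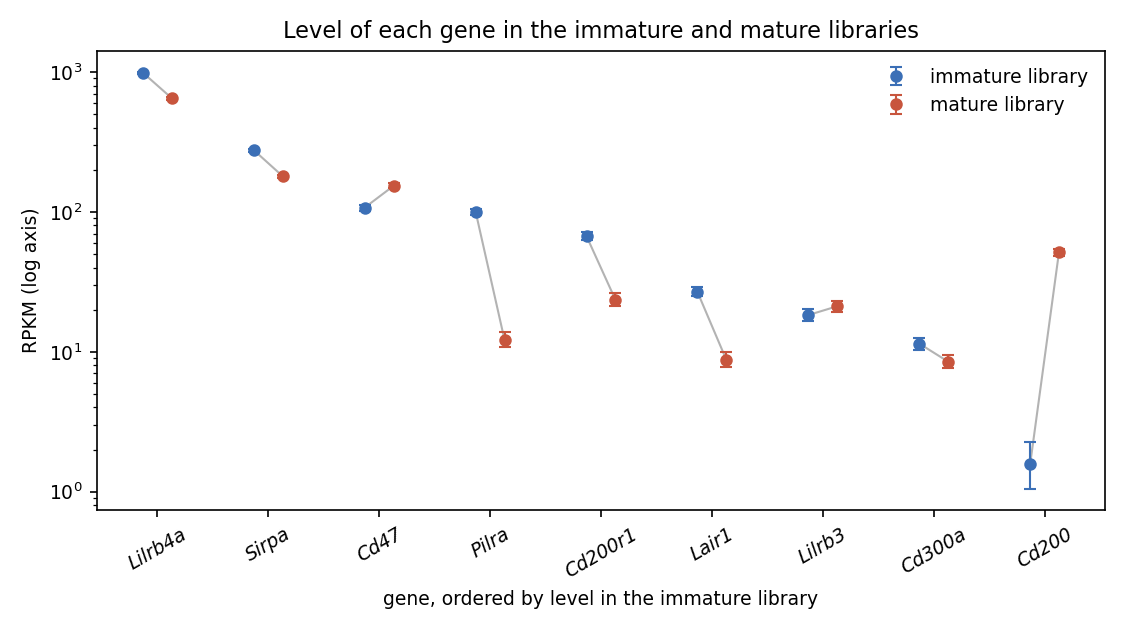
Level of each of the 9 genes in RPKM (log axis) in the immature (blue) and mature (red) library, with bars for the exact 95% counting interval and grey lines joining the libraries. Cd200 goes from the lowest level, 1.57 RPKM, to the fourth, 51.4 RPKM, while Lilrb4a and Sirpa lead in both.

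Of the ligands, Cd200, whose product has a short inner tail without a signalling motif, had 28 immature and 980 mature reads. These gave 1.57 RPKM (95% counting interval 1.04 to 2.26) and 51.4 RPKM (48.2 to 54.7). The ratio was 32.8 (22.5 to 49.6), and 0.0606% of compared genes had a larger log2 difference. Cd200 was thus near the bottom of the compared genes in the immature library, above 11.8% of them, and above 87.6% in the mature library. T cells, B cells and endothelium are other known sources of Cd200. The summed level of 12 T cell markers was 3.999 RPKM before and 7.91 RPKM after maturation, with 2 and 1 of them at 0 reads. That of 12 B cell markers was 10.3 and 6.85 RPKM, with 2 and 4 at 0 and most of it from Cd22. That of 14 endothelial and stromal markers was 11.8 and 12.0 RPKM, with 4 and 3 at 0. Of its 3 compared genes 2 were higher, as Cd200 was: Kdr stood at 1.43 and 5.17 RPKM and Esam at 0.356 and 2.27 RPKM. The third, Vwf, was lower, at 7.80 and 3.25 RPKM. The part of such cells in the level of Cd200 was not tested.

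The 3 genes whose levels in the 2 libraries lay nearest to those of Cd200, by distance on the log2 scale, were Selenom (2.38 and 38.5 RPKM), Slamf1 (2.95 and 38.8 RPKM) and Adcy6 (1.86 and 28.8 RPKM). The distances were 0.57, 0.74 and 0.83. With 2 libraries this is likeness over 2 points and nothing more.

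Cd47 had 1567 immature and 2392 mature reads, which gave 107.5 RPKM (102 to 113) and 154 RPKM (148 to 160). Its ratio was 1.43 (1.34 to 1.525), and 24.4% of compared genes had a larger log2 difference. Cd47 was therefore abundant in both states and moved far less than Cd200.

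The receptors of both ligands went the other way. Cd200r1 had 958 immature and 360 mature reads, 67.0 RPKM (62.8 to 71.4) and 23.6 RPKM (21.2 to 26.2), so it was 2.84-fold lower (2.51 to 3.215) in the mature library. Sirpa, which encodes the CD47 receptor SIRPα, had 8369 and 5819 reads, 276 and 180 RPKM, a ratio of 0.651 (0.630 to 0.674) that lies within 2-fold. Ligand and receptor levels therefore shifted relative to each other on both axes. Per unit length, Cd200 was 42.75-fold below Cd200r1 (29.4 to 64.7) in the immature library and 2.18-fold above it (1.93 to 2.465) in the mature library. The level of Cd47 was 0.389 of that of Sirpa (0.369 to 0.411) in the immature library and 0.854 (0.814 to 0.896) in the mature library. The order turned for the CD200 pair, while for the CD47 pair the receptor gene stayed above the ligand gene.

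**Figure D2:**
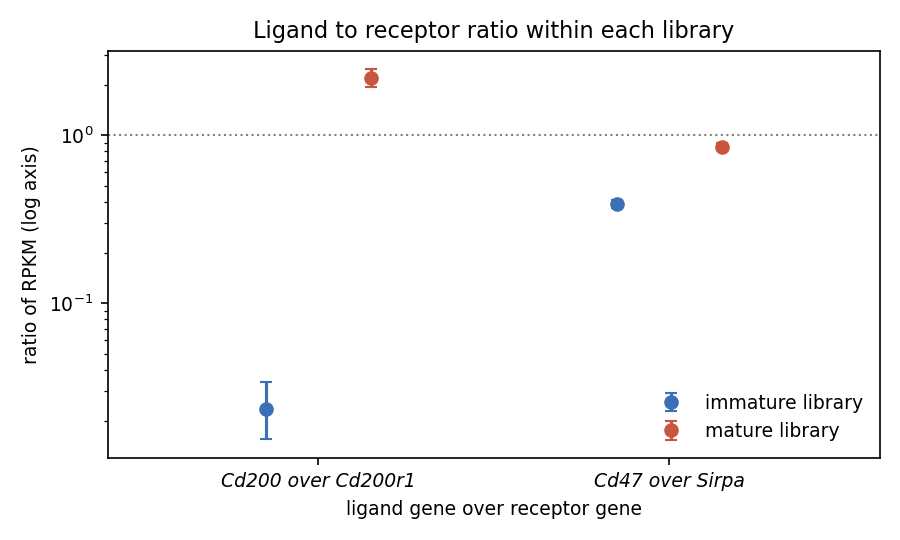
Ratio of ligand to receptor RPKM (log axis) within the immature (blue) and mature (red) library for both ligand and receptor pairs, with exact 95% counting intervals and a dotted line at 1. The Cd200 to Cd200r1 ratio passes from 0.0234 to 2.18, across the line, and the Cd47 to Sirpa ratio from 0.389 to 0.854, below it.

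Among the receptors with ITIMs, Pilra had the largest difference. PILRα binds sialylated O-glycoproteins such as CD99. Pilra had 1958 immature and 255 mature reads, 100.0 RPKM (95.65 to 104.6) and 12.2 RPKM (10.75 to 13.8), and was 8.20-fold lower (7.19 to 9.38). A share of 1.12% of compared genes had a lower log2 difference. By RPKM the counting intervals of Pilra and Cd47 overlapped in the immature library, and Pilra was 12.6-fold below Cd47 in the mature library. Reads covered less of Pilra than of genes like it, as given below, so this comparison with Cd47 is uncertain.

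Lair1 encodes a receptor for collagens and for the complement component C1q. It had 712 and 249 reads, 26.8 RPKM (24.9 to 28.9) and 8.78 RPKM (7.725 to 9.94), 3.05-fold lower (2.64 to 3.54). Cd300a, whose product binds phosphatidylserine on dying cells, had 402 and 319 reads, 11.45 RPKM (10.4 to 12.6) and 8.51 RPKM (7.60 to 9.50). Its ratio of 0.743 (0.640 to 0.863) lay within 2-fold. Lair1 and Cd300a stood apart in the immature library, and their counting intervals overlapped in the mature library.

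Lilrb4a, which encodes gp49B, was the most abundant of the 9 in both libraries. It had 10614 and 7445 reads, 988 and 649 RPKM, a ratio of 0.657 (0.638 to 0.677), within 2-fold. It ranked 41st of 16573 listed genes in the immature and 55th of 16646 in the mature library. Its reads were 42.5% of all reads of the 9 genes in the immature library and 40.7% in the mature library, and it had the largest absolute difference, 339 RPKM lower in the mature library.

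Lilrb3 encodes PIR-B, a receptor of MHC class I molecules. It had 378 and 466 reads, 18.3 RPKM (16.5 to 20.3) and 21.2 RPKM (19.3 to 23.2), a ratio of 1.155 (1.006 to 1.33) whose interval came close to 1. It was the only one of the 7 receptor genes without a lower level in the mature library; the other 6 had ratios from 0.122 to 0.743. In the mature library its counting interval overlapped that of Cd200r1, which had been 3.66-fold above it in the immature library. As for Pilra, low coverage by reads makes this comparison uncertain.

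Reads were counted only where they could be placed uniquely, which costs reads in genes with near-identical relatives. Lilrb3 was covered by reads over 30.5% of its length among immature and 30.65% among mature reads. Genes of like length and read density had a median coverage of 89.2% (366 genes) and 89.85% (363 genes). Pilra was covered over 61.4% and 48.6%, against 95.9% (103 genes) and 85.1% (365 genes). The levels of Lilrb3 and Pilra are therefore uncertain, and whether lost reads bear on their ratios was not tested. Lilrb4a was covered over 86.3% and 85.7%, against 97.6% (7 genes) and 96.7% (11 genes). Its relative Lilrb4b had no match by symbol, so reads lost between them could not be judged. The level, rank and share of Lilrb4a are therefore less certain too. The coverage of the other 6 genes lay within 18.6 percentage points of their like genes.

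**Figure D3:**
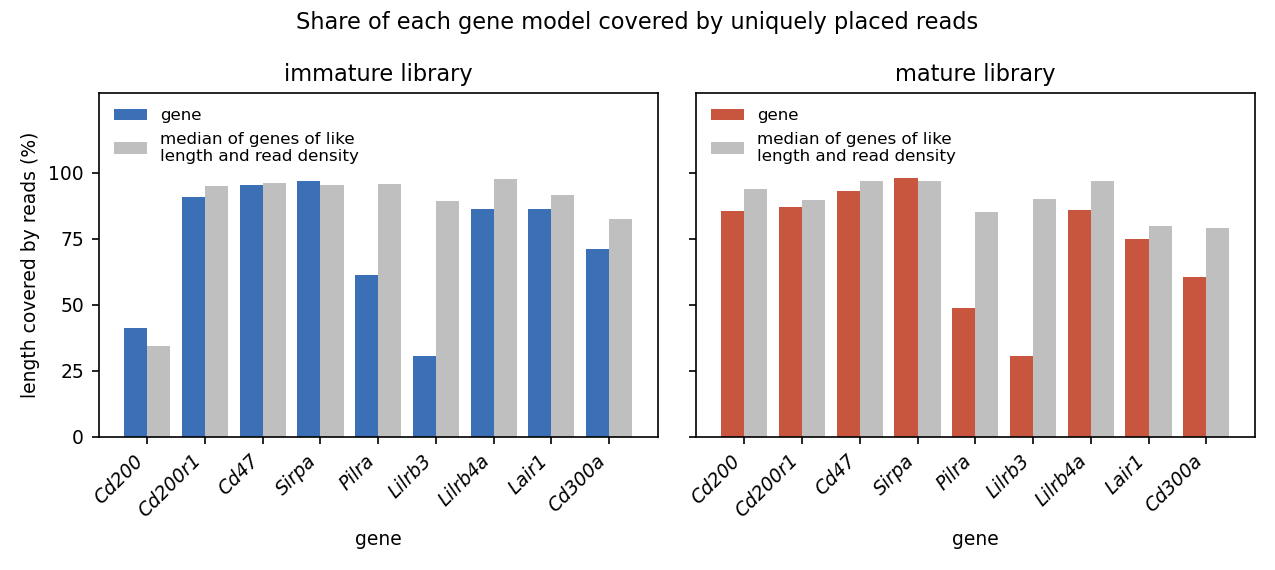
Percent of each gene model covered by uniquely placed reads, immature library on the left (blue) and mature on the right (red), with grey bars for the median of genes of like length and read density. Lilrb3 at 30.5% and 30.65% and Pilra at 61.4% and 48.6% stand far below their grey bars.

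The relatives of the receptors were examined next. They are named by family, a choice made after values were known, and reads they share with each other make single values uncertain. Of 18 relatives, 15 reached 1 RPKM in a library, and 0 of these were at least 2-fold higher, 8 lower and 7 within 2-fold in the mature library. Beside this count and those of the lists below stand the shares over all compared genes, 9.05% higher and 11.3% lower. In the PILR family both activating genes went with Pilra. Pilrb1 stood at 21.3 and 2.43 RPKM, 8.75-fold lower (5.49 to 14.7), and Pilrb2 at 18.9 and 3.085 RPKM, 6.12-fold lower (4.445 to 8.60). Both intervals overlap that of Pilra, so a difference in size between the inhibitory and activating PILR genes was not detectable at this depth.

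The activating CD200 receptor gene Cd200r4 stood at 54.8 and 14.1 RPKM, 3.90-fold lower (3.32 to 4.60), an interval that lies above that of Cd200r1. Its relative Cd200r3, best known from basophils and mast cells, stood at 5.22 and 1.15 RPKM, 4.55-fold lower (2.57 to 8.61). In the SIRP family the activating genes Sirpb1b and Sirpb1c were lower too. Sirpb1b, on 80 and 27 reads, was 3.16-fold lower (2.02 to 5.09). Sirpb1c, on 46 and 12 reads, was 4.09-fold lower (2.13 to 8.49). Both intervals lie apart from that of Sirpa, 1.535-fold lower (1.485 to 1.59). Sirpb1a, on 12 and 3 reads, was 4.27-fold lower with an interval (1.15 to 23.6) that overlaps that of Sirpa.

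In the PIR and LILR family Lilra6 was 2.94-fold lower (2.30 to 3.79), at 13.4 and 4.55 RPKM, and Pira2 was at 4.50 and 3.25 RPKM, a ratio of 0.722 (0.543 to 0.958). Both intervals lie below that of Lilrb3. So does that of Lilra5, which on 36 and 15 reads had a ratio of 0.390 (0.199 to 0.731). In the CD300 family the inhibitory gene Cd300lf was 2.81-fold lower (2.25 to 3.54), with immature reads over 20.2% of its length. The family members Cd300lb, Cd300c2 and Cd300ld had ratios of 0.693, 0.788 and 1.09, and those intervals overlap that of Cd300a. Cd300lg, on 23 and 3 reads, had a ratio of 0.122 (0.0235 to 0.4045), an interval that lies below that of Cd300a. Sirpb1a, Lilra5 and Cd300lg count as within 2-fold because their low levels shrink the difference on the log2 of (RPKM + 1) scale.

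**Figure D4:**
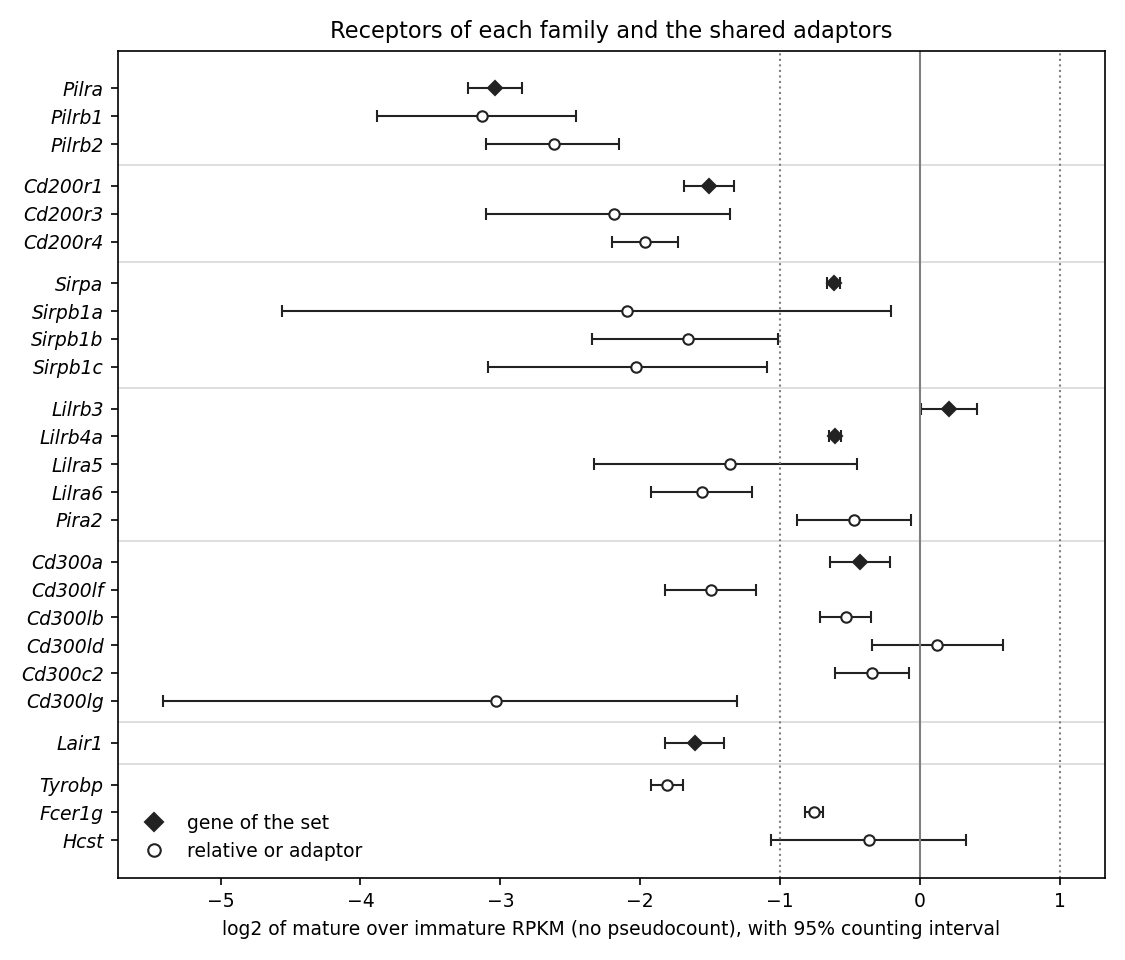
Log2 ratio of mature to immature RPKM, without a pseudocount, with exact 95% counting intervals, for the receptors of the set (filled diamonds) and their relatives and adaptors (open circles), grouped by family, for genes that reach 1 RPKM in either. Dotted lines mark 2-fold. The 3 PILR genes lie together on the left, and Lilrb3 lies to the right of Lilra5, Lilra6 and Pira2.

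The activating receptors signal through shared adaptors. Tyrobp, which encodes DAP12, stood at 586 and 167 RPKM, 3.51-fold lower (3.24 to 3.801). Fcer1g, which encodes FcRγ, stood at 982 and 581 RPKM, a ratio of 0.592 (0.566 to 0.619). In the whole list of activating paired receptors and adaptors, 0 of 20 compared genes were higher and 10 were lower, with a median log2 difference of -1.11. On the log2 of (RPKM + 1) scale its largest differences were those of Pilrb1, Pilrb2, Cd200r4 and Trem1. Trem1, whose product amplifies inflammation, was 3.81-fold lower (3.41 to 4.27).

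Other inhibitory receptors of leukocytes, 24 in the list and 18 compared, were higher in 1 case, lower in 5 and within 2-fold in 12, with a median of -0.62 that is close to the -0.605 of the 9 genes. Cd72, a receptor for semaphorin CD100, was higher, at 2.38 and 12.6 RPKM, a ratio of 5.31 (3.51 to 8.32). The lower ones included the C-type lectin Clec12a, 21.7-fold lower (17.2 to 27.7), and Clec4a2, which encodes DCIR, 2.78-fold lower (2.44 to 3.17). Klrb1b, on 88 and 20 reads, was 4.70-fold lower (2.87 to 8.06). Fcgr2b, the inhibitory IgG receptor and the most abundant of the list, lay within 2-fold at 312 and 362.5 RPKM.

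**Figure D5:**
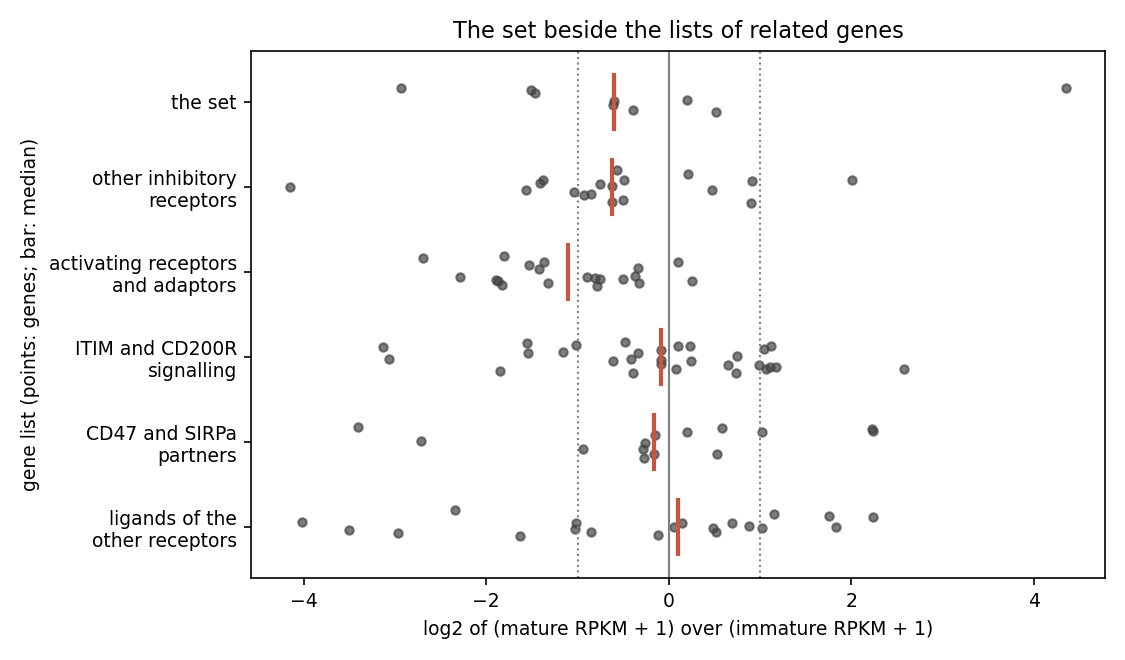
Log2 of (mature RPKM + 1) over (immature RPKM + 1) for the 9 genes and for each list of related genes; each point is a gene that reaches 1 RPKM in either, and the red bar is the median. The median is -1.11 for activating receptors and adaptors and -0.083 for the signalling genes, and the points of the signalling list lie on both sides of 0.

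Below the receptors, the signalling genes were split. Of 29 compared, 6 were higher, 7 lower and 16 within 2-fold, with a median log2 difference of -0.083. Ptpn6, which encodes SHP-1, stood at 208 and 70.2 RPKM, 2.97-fold lower (2.78 to 3.17). Ptpn11, which encodes SHP-2, stood at 28.35 and 29.9 RPKM, a ratio of 1.06 (0.976 to 1.14). The lipid phosphatase gene Inpp5d (SHIP-1) had a ratio of 0.787 (0.734 to 0.843). Ptpn6 was thus 7.35-fold above Ptpn11 in the immature and 2.35-fold above it in the mature library.

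The adaptors of CD200R1 moved in opposite directions. Dok2 stood at 115 and 12.8 RPKM, 8.93-fold lower (7.64 to 10.5), while Dok1 stood at 13.4 and 28.6 RPKM, 2.13-fold higher (1.79 to 2.55). Rasa1, which encodes RasGAP, had 8.55 and 10.3 RPKM, a ratio of 1.21 (1.045 to 1.40). Dok2 was the more abundant of the 2 Dok genes in the immature library and Dok1 in the mature library. Kinases of the SRC family, which phosphorylate ITIMs, were split too. Fgr was 9.66-fold lower (8.43 to 11.1), while Src was 2.30-fold higher (1.995 to 2.66). Lyn, of the same family, had 35 and 21 reads over only 4.66% and 5.87% of its length, so its level cannot be read here. Cblb, a ubiquitin ligase that restrains tyrosine kinase signalling, was 6.92-fold higher (6.05 to 7.94). Fyb and Gab2, adaptors of tyrosine kinase pathways, had ratios of 2.295 (2.11 to 2.50) and 2.21 (2.04 to 2.41).

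The list of partners of CD47 and SIRPα also held related genes that are not partners themselves, such as Qpct and Cd24a. Of its 14 compared genes, 3 were higher, 2 lower (Qpct and Cd24a) and 9 within 2-fold, with a median of -0.16. Thbs1, which encodes thrombospondin, a soluble ligand of CD47, stood at 233 and 351 RPKM, a ratio of 1.505 (1.47 to 1.54), with reads over only 36.85% and 36.75% of its length. The integrin genes Itgav and Itgb3, whose products form a complex with CD47, had ratios of 5.20 (4.67 to 5.80) and 2.45 (1.95 to 3.09), and Itga4, which encodes the integrin α4 chain, one of 5.28 (4.77 to 5.85). Qpctl, the enzyme that modifies CD47 so that it binds SIRPα, was at 8.44 and 7.43 RPKM, a ratio of 0.881 (0.685 to 1.13). Its relative Qpct was 8.52-fold lower (6.23 to 11.9). Cd24a, which encodes another "do not eat me" protein, was 10.8-fold lower (9.99 to 11.7), at 496 and 45.9 RPKM, opposite to Cd47 and Cd200.

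Ligands of the other receptors were also measured. The list also held Plscr1, Xkr8 and Ano6, which do not encode ligands and lay within 2-fold. Of its 20 compared genes, 5 were higher, 7 lower and 8 within 2-fold, with a median of 0.098. The C1q genes, ligands of LAIR1, were lower, as was Lair1. The same C1q genes also stand among the macrophage and monocyte markers counted below. C1qb stood at 53.0 and 2.33 RPKM, 22.7-fold lower (14.5 to 37.6). C1qa and C1qc were lower on 4 and 6 mature reads. Collagen genes of the list were at most at 1.81 RPKM in either library. The MHC class I genes H2-K1, H2-D1 and B2m, whose products PIR-B binds, were 3.38-fold, 3.57-fold and 2.22-fold higher, while Lilrb3 differed little. Fn1, which encodes fibronectin, a ligand of LILRB4, was 5.12-fold lower (4.99 to 5.25), at 591 and 115.5 RPKM. The integrin genes Itgav and Itgb3 stand in this ligand list as well as among the CD47 partners. They were higher, with ratios of 5.20 (4.67 to 5.80) and 2.45 (1.95 to 3.09), opposite to Fn1.

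Markers of other marrow cells moved with the lower receptors. The summed level of 15 neutrophil and precursor markers was 8482 RPKM before and 2190 RPKM after maturation, and 11 of the 15 were at least 2-fold lower. That of 14 macrophage and monocyte markers was 1379 and 714.5 RPKM, with 7 of 13 compared genes lower, the C1q genes among them. That of 12 eosinophil, basophil and mast cell markers was 212 and 26.6 RPKM, with 5 of 8 lower and 3 of the 12 at 0 in both. None of the neutrophil or macrophage markers was at 0 in either library. Neutrophils and monocytes are known to express Pilra, Lair1, Tyrobp, Fgr and Dok2 as well, a choice of genes from among the lower ones. Both libraries came from cells sorted on CD86 and Iab, and the part of such cells in the lower values was not tested. The summed level of 10 natural killer and innate lymphoid markers was 35.9 and 191 RPKM, nearly all from Il7r at 28.3 and 185 RPKM. That of 11 erythroid and megakaryocyte markers was 92.7 and 137.5 RPKM, mostly from Pf4. All 15 of 15 cell cycle genes were lower, with a summed level of 766 and 65.1 RPKM, and whether proliferation bears on the receptors was not tested.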

How the data were processed

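RNA-seq of 1 immature and 1 mature library of mouse bone marrow-derived DC was used. Per the file headers, the authors deposited counts of uniquely placed reads per gene, the percent of the gene length covered, and RPKM. RPKM as deposited was recomputed from the counts within a relative deviation of 1.07e-07. Per the submitters' processing notes the build was mm8. For the aligner, counting tool, annotation and strand setting: not given in the sources used here. Symbols came from the RefSeq gene table of GRCm38.p6 for 16220 of 18090 identifiers, and a gene missing from 1 file was taken as 0 reads. The libraries held 7.56 M and 8.07 M reads (M, 1000000), and 3 reads in a gene of 1000 bases equal 0.397 and 0.372 RPKM.

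From the deposited values, log2 of (RPKM + 1) was compared for genes that reach 1 RPKM in either library, and higher or lower means at least 2-fold. Ratio intervals are exact (Clopper-Pearson, 95%, on the share of a gene's reads in each library), those of levels exact Poisson, and those of shares Wilson (SciPy 1.17.1). Without molecular identifiers, reads can be copies of 1 molecule, so intervals cover counting error only. No test between the states was made. Steps were tested on simulated data. Alternatives were the scaling (edgeR 4.0.16 TMM, DESeq2 1.42.0 size factors, a common sum of RPKM), the pseudocount, the filter, the fold, the coverage and the call rule.

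The genes, the lists and the rule for names were chosen with earlier results of these data known. The rule named all 9 genes, up to 4 higher and 4 lower genes of each list by size of the log2 difference, 12 direct partners whatever their values, and the 3 genes nearest to the member with the largest difference. 1 of the other inhibitory receptors, Lilrb4b, and 5 of the activating receptors had no match by symbol. Like genes for coverage had a length and read density of at least 0.8 times the gene's and at most the inverse of that, a choice made after seeing the data. Relatives outside this rule were named by family after their values were seen, and some other genes of the lists were named to state a limit. 1 gene that the rule names is not reported here. Protein sequences were not used here.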

Additional observations from a re-analysis of the deposited data

How the results depend on the processing

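Each log2 difference of the 9 genes kept its direction in all 54 values under other scalings and pseudocounts; 9 of these moved by more than the counting error. That of Cd200 ranged from 3.10 with a pseudocount of 5 RPKM to 4.95 with 0.1 RPKM. Rescaling to a common sum without the 50 most abundant genes shifted the median of all compared genes from 0.026 to 0.13. The counts of higher and lower members, 1 and 3, changed only with the fold or the call rule. At 4-fold 1 member was lower, as were 2.74% of all genes (316, with 197 or 1.71% higher, against 1310 and 1045 at 2-fold), and members of the 3 main lists past it numbered 2 (other inhibitory receptors, 6 at 2-fold), 2 (activating receptors and adaptors, 10 at 2-fold) and 3 (signalling, 13 at 2-fold). Counting every gene whose interval lay on 1 side of 1, the numbers were 3 members higher and 6 lower, against 36.1% and 33.8% of all genes (4171 and 3899), and 16, 18 and 24 in those lists. With a pseudocount of 5 RPKM they were 6 activating and 8 signalling genes, against 469 higher and 686 lower genes in all. These rules count differently by construction. Depth limits Cd200 most, with 28 immature reads. With 1 library per state no replicate could be left out, and the missing replicates limit every value, since no interval here covers the spread between cultures.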
